A study of Homo sapiens with 4 samples.

Results

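Narrow H3K4me3 peaks with TAF3 and RNAPII are H3K4me3 peaks shorter than 1500 bp that overlap exactly 1 TAF3 peak and at least 1 RNAPII peak in the authors' filtered peak lists from HCT116 cells. There were 943 of them among 14298 filtered H3K4me3 peaks (6.60%, Wilson 95% interval 6.20 to 7.01%). Length, TAF3 and RNAPII all entered the choice, so the lengths, fold enrichments and overlaps given below are a description of the chosen regions and are not tested. HCT116 is an established human colorectal carcinoma line, and the study holds 4 libraries from formaldehyde-fixed cells of this line, 1 each for TAF3, H3K4me3, RNAPII and input DNA. The TAF3 library was made with a polyclonal antiserum against part of the human protein. Each antibody has 1 library and all peaks were called against the same input, so differences between libraries have no replicate check, and intervals below cover only the number of peaks counted. After removal of duplicates the libraries held between 12560129 (H3K4me3) and 19185386 (input) tags. The authors' fold enrichment, a ratio of tags at a peak's summit to the background expected from input, and their tag counts per peak are used throughout as deposited.

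H3K4me3 is trimethylation of lysine 4 on the tail of histone H3, and it marks nucleosomes around the start sites of active genes. TAF3 is a subunit of TFIID, the general transcription factor that recognises core promoters, and it carries a PHD finger that binds the H3K4me3 tail. RNA polymerase II (RNAPII) is loaded next to TFIID in the preinitiation complex and often pauses shortly downstream. At active promoters the mark usually spreads over several nucleosomes on both sides of a nucleosome-poor start site, and a short H3K4me3 peak has room for fewer nucleosomes than a long one. The series title names the interaction of TAF3 with the mark in preinitiation complex assembly, and the question here was what TAF3 and RNAPII look like where the called H3K4me3 peak is short. Gene annotation and sequence on the files' build, hg19, were not used here, so each region is given by its hg19 position, with the first base of a chromosome as 1, and the genes and sequences there are not analysed.

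Short H3K4me3 peaks overlapped a called TAF3 peak less often than long ones. At least 1 filtered TAF3 peak lay on 952 of 2612 short peaks (36.4%, 34.6 to 38.3%) and on 10609 of 11686 long ones (90.8%, 90.2 to 91.3%). With the full TAF3 list, which includes peaks below the authors' cut, the shares were 75.9% (74.2 to 77.5%) and 98.4% (98.2 to 98.6%). By the whole rule, of the 2612 H3K4me3 peaks shorter than 1500 bp, 943 met the overlap rule (36.1%, 95% interval 34.3 to 38.0%), compared with 10343 of the 11686 peaks of 1500 bp or more (88.5%, 95% interval 87.9 to 89.1%) and 78.9% of H3K4me3 peaks of any length. The share was 29.8% of 198 peaks under 750 bp, 25.8% of 493 peaks of 750 to 999 bp, 31.3% of 830 peaks of 1000 to 1249 bp and 45.6% of 1091 peaks of 1250 to 1499 bp. Beyond the limit it was 73.3% at 1500 to 1999 bp and 94.1% at 2000 to 2999 bp. The remaining 1669 short peaks comprised 1127 with RNAPII and no filtered TAF3 peak, 533 with neither, 5 with 1 TAF3 peak and no RNAPII, and 4 with more than 1 TAF3 peak.

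**Figure D1:**
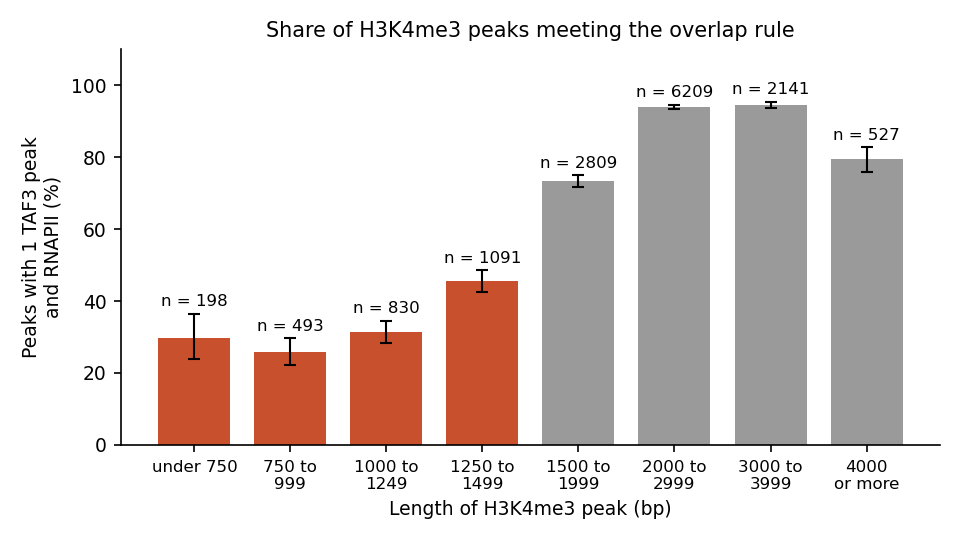
Share of filtered H3K4me3 peaks that overlap exactly 1 TAF3 peak and at least 1 RNAPII peak, in percent, by length of the H3K4me3 peak in bp (red, under 1500 bp; grey, 1500 bp or more; bars start at 0, error bars are Wilson 95% intervals, n is the number of H3K4me3 peaks). The share lies between 25.8% and 45.6% under 1500 bp and between 73.3% and 94.6% in the longer classes.

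Among short peaks with RNAPII, TAF3 was found more often where the mark was stronger. At least 1 filtered TAF3 peak was present at 68 of 284 such peaks with an H3K4me3 fold enrichment under 25 (23.9%), at 33.7% of 766 between 25 and 50, 47.1% of 431 between 50 and 75, 55.6% of 239 between 75 and 100, 77.2% of 254 between 100 and 150 and 89.0% of 100 above 150. In every one of these ranges the share was higher at peaks of 1500 bp or more, from 43.7% of 135 in the lowest to 98.9% of 4997 in the highest, and the 95% intervals for short and long peaks did not overlap in any of them. Short peaks with RNAPII and no filtered TAF3 peak had a median of 41.0-fold H3K4me3 and 40.2-fold RNAPII enrichment, below the members at 67.7- and 88.6-fold. Since the TAF3 list was cut at a fold enrichment of 5 and a false discovery rate of 5%, a peak without TAF3 can still hold TAF3 signal under that cut.

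The members had a modest H3K4me3 signal next to longer peaks that met the same overlap rule, and their TAF3 and RNAPII signals were closer to those of the longer peaks. The median H3K4me3 fold enrichment was 67.7 (95% interval 63.7 to 71.1, n = 943) against 145 (144 to 147, n = 10343), a ratio of 0.466. For TAF3 the medians were 27.1 (26.7 to 28.3) and 38.0 (37.5 to 38.7), a ratio of 0.713. For RNAPII they were 88.6 (83.6 to 91.1) and 111 (110 to 112), a ratio of 0.798. The same order was seen in tags per kb of peak, where members stood at 0.439 of the longer peaks for H3K4me3, 0.700 for TAF3 and 0.806 for RNAPII. The TAF3 fold enrichment divided by that of H3K4me3 therefore had a higher median in members, 0.410 (0.390 to 0.435), than in longer peaks, 0.272 (0.269 to 0.275). It was 0.379 (0.358 to 0.402) in the 680 members whose TAF3 peak touched no other filtered H3K4me3 peak. Over all filtered H3K4me3 peaks, with or without TAF3 and RNAPII, median H3K4me3 enrichment was 56.6 at 1250 to 1499 bp and 102 at 1500 to 1999 bp. Under the overlap rule the step at the limit was smaller, with 88.7 in members of 1400 bp or more and 94.8 in peaks of 1500 to 1599 bp. TAF3 and RNAPII had to be called in both classes, so the order of these ratios is not independent of the rule.

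The range among members was wide. H3K4me3 fold enrichment ran from 13.9 to 279 with quartiles of 41.2 and 110, TAF3 from 8.67 to 143 with quartiles of 20.2 and 38.1, and RNAPII from 16.1 to 271 with quartiles of 61.3 and 126. A member held a median of 173 H3K4me3 tags over 1268 bp, 99 TAF3 tags over a TAF3 peak of 1105 bp and 264 RNAPII tags over an RNAPII peak of 1278 bp. The limit of 1500 bp fell inside a continuum. The 242 members of 1400 bp or more had a median TAF3 fold enrichment of 25.8 and H3K4me3 of 88.7, and the 299 peaks of 1500 to 1599 bp had 27.1 and 94.8. Just inside the limit, the 1499 bp peak at chr3:132439926-132441424 had 186-fold H3K4me3, 71.3-fold TAF3 and 207-fold RNAPII enrichment, and the 1498 bp peak at chrX:130035885-130037382 had 113-, 43.9- and 115-fold. Just outside it, the 1500 bp peaks at chr7:13055468-13056967 and chr14:89016859-89018358 had 33.5- and 117-fold H3K4me3 and 17.5- and 44.0-fold TAF3 enrichment.

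Many members shared their TAF3 peak with a neighbouring H3K4me3 peak. In 263 of 943 members the single TAF3 peak also overlapped another filtered H3K4me3 peak (27.9%, 95% interval 25.1 to 30.8%), compared with 264 of 10343 longer peaks (2.55%, 2.27 to 2.87%) and 4.67% of peaks of any length under the overlap rule. The difference between members and longer peaks was 25.3 percentage points (95% interval 22.6 to 28.3). A further 48 members had a TAF3 peak that reached another H3K4me3 peak only in the full list, which includes peaks below the authors' cut. Another filtered H3K4me3 peak lay within 2000 bp of 349 members (37.0%, 34.0 to 40.1%), against 7.04% of longer peaks, 16.1% of the 1127 short peaks with RNAPII and no TAF3, and 10.2% of all filtered H3K4me3 peaks. The sharing was most frequent in the shortest members. It was seen in 110 of 186 members under 1000 bp (59.1%) and in 12.8% of members of 1400 bp or more, next to 12.7% of the peaks of 1500 to 1599 bp. Because of the sharing the 943 members drew on 893 TAF3 peaks and 890 RNAPII peaks, and 100 members shared a TAF3 peak with another member, so members are not independent of each other. When filtered H3K4me3 peaks up to 200 bp apart were joined into 1 before the rule was applied, the share fell to 4.86%, and with a limit of 500 bp it fell to 0.161% and 620 members were left, 619 of them unchanged. The gaps in shared pairs had an upper quartile of 147 bp, so joining removes most of the sharing by construction.

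The shared arrangement was nearly always a TAF3 peak lying across a small gap between a pair of called H3K4me3 peaks. Only peak calls are at hand, so whether the mark itself is lower in the gap, or the caller split a continuous domain, was not tested. The 263 members lay under 213 TAF3 peaks, of which 211 overlapped exactly 2 filtered H3K4me3 peaks. In 162 of these 211 a member stood next to a long H3K4me3 peak, and in 49 both H3K4me3 peaks were short. The stretch between the H3K4me3 peaks had a median of 89 bp (95% interval 76 to 108, quartiles 39.5 and 147, longest 681). Together the pair spanned a median of 2899 bp (2765 to 3006), and the TAF3 peak across them measured 1937 bp (1833 to 2004). The tags were unevenly split, with a median of 615 in the fuller H3K4me3 peak and 134 in the other, and a median ratio within pairs of 4.09.

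Few TAF3 summits fell in the gap itself, which was short next to the TAF3 peak (medians of 89 and 1937 bp). A small share therefore does not by itself show that summits avoid the gap. It lay between the H3K4me3 peaks in 7 of 211 pairs (3.32%, 95% interval 1.62 to 6.69%), and the RNAPII summit in 12 (5.69%, 3.28 to 9.68%). In the 162 pairs of a member and a long peak the TAF3 summit was inside the long peak in 104 (64.2%, 56.6 to 71.2%), inside the member in 53 (32.7%, 26.0 to 40.3%) and between them in 5. Thus 174 members had their TAF3 summit outside their own borders (18.5%), against 2.48% of peaks of any length under the rule, and 161 of these 174 were members with a shared TAF3 peak. For those 161 the TAF3 fold enrichment assigned to the member was read at a place the member does not cover. The shared TAF3 peak nevertheless covered a median of 705 bp of the member (663 to 737), or 67.9% of its length. In 1 member the shared stretch was only 4 bp.

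The strongest TAF3 signals among members came largely from these shared sites. At chr22:36784295-36785294 the member was 1000 bp long with 39.8-fold H3K4me3 enrichment and 67 tags. The TAF3 peak that reached it, chr22:36782098-36784937, had 143-fold enrichment and 607 tags, the RNAPII peak had 235-fold, and the neighbouring H3K4me3 peak, chr22:36781411-36784224, had 172-fold and 1284 tags. TAF3 and RNAPII summits were 13 bp apart there, both in the neighbouring peak, and the member's own H3K4me3 summit was 753 bp from the TAF3 summit. At chr13:52027474-52028703 the member was itself strong (152-fold H3K4me3, 436 tags), next to a neighbour of 216-fold and 995 tags, with 141-fold TAF3 and 271-fold RNAPII enrichment, the highest RNAPII value of all members. At chr5:179158524-179159622 the member had 29.2-fold H3K4me3 and 57 tags beside a neighbour of 265-fold and 825 tags, and TAF3 reached 132-fold and RNAPII 163-fold. This site had the highest quotient of TAF3 to H3K4me3 fold enrichment, 4.52.

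All 5 members with the highest quotient had a shared TAF3 peak with its summit outside the member. After chromosome 5 they were chr16:84651846-84653176 (85.6-fold TAF3, 21.0-fold H3K4me3), chr19:38864582-38865261 (97.0 and 26.1), the chromosome 22 site and chr1:15943044-15943750 (111 and 31.4). In the 94 members of highest TAF3 fold enrichment, 57 had a shared TAF3 peak (60.6%, 50.5 to 69.9%), and in the 94 of highest RNAPII 49 (52.1%, 42.1 to 61.9%). In the 94 of highest H3K4me3 enrichment the number was 27 (28.7%, 20.6 to 38.6%), close to the 27.9% of all members. A longer TAF3 peak has more chance of touching a second H3K4me3 peak, so the sharing and the size of the TAF3 peak are linked by construction.

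The shortest members were mostly shared as well. The 324 bp peak at chr6:163835606-163835929 had 51.8-fold H3K4me3 from 40 tags, 31.0-fold TAF3 and 77.5-fold RNAPII, beside a 1852 bp neighbour of 161-fold. Next came chr16:15249027-15249453 (427 bp, 49.1-fold H3K4me3, 72.4-fold TAF3, 200.4-fold RNAPII), chr16:2723634-2724065 (432 bp, 41.1-, 41.4- and 119-fold) and chr1:16841180-16841651 (472 bp, 42.5-, 28.3- and 115-fold), all with a shared TAF3 peak whose summit lay outside the member. At the chromosome 1 site the TAF3 peak ended at 16841183, only 4 bp inside the member. The last of the 5, chr7:102212586-102213098 (513 bp, 96.9-, 29.7- and 38.7-fold), had a TAF3 peak of its own with 41 tags.

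**Figure D2:**
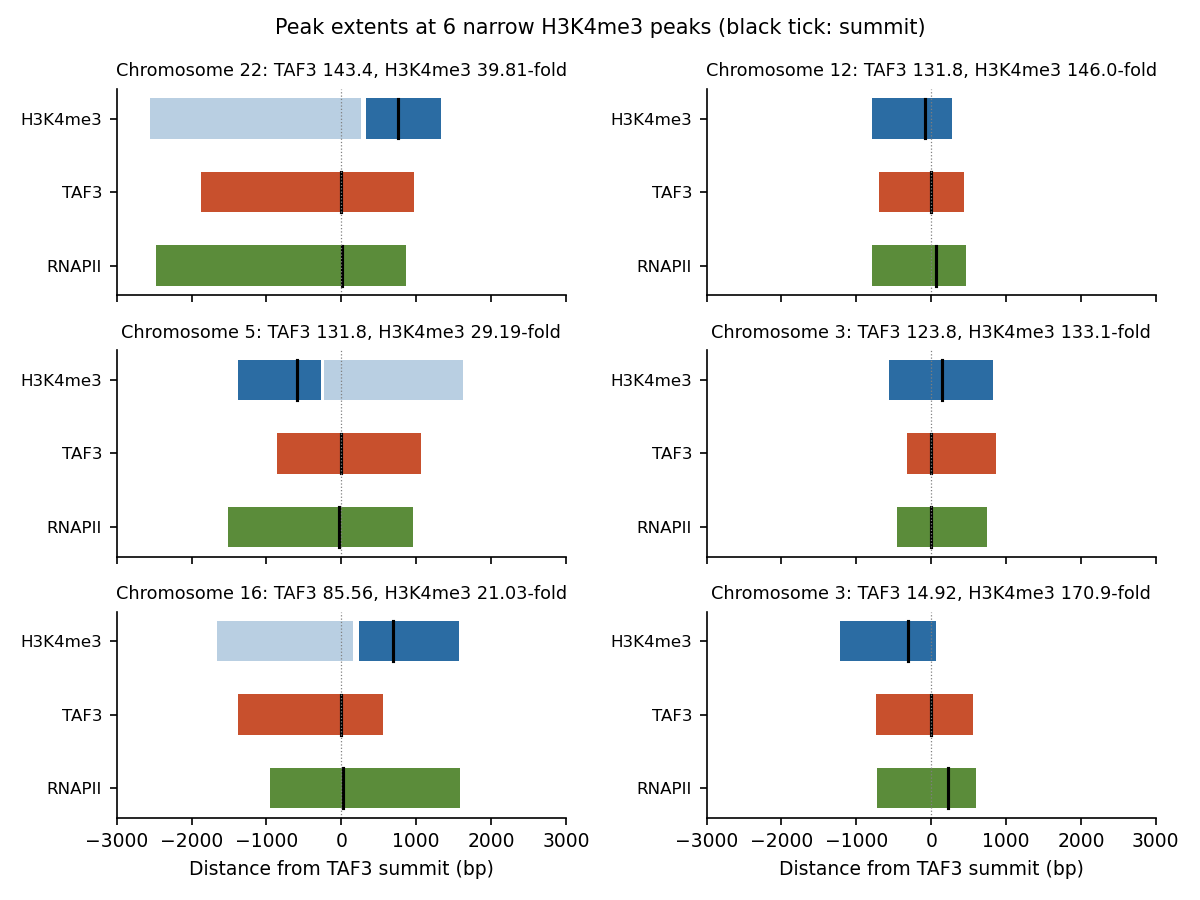
Extents of called peaks at 6 members, drawn to scale in bp from the TAF3 summit, with the member in dark blue, the other H3K4me3 peak under the same TAF3 peak in light blue, TAF3 in red, RNAPII in green, and a black tick at each summit. At the 3 sites on the left the TAF3 peak spans 2 H3K4me3 peaks and its summit lies in the other one, and at the 3 on the right the TAF3 peak lies on the member alone.

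The other 680 members (72.1%), called unshared below, had a TAF3 peak that touched no other filtered H3K4me3 peak. The term refers to the TAF3 peak only, since 86 of the 680 had another filtered H3K4me3 peak within 2000 bp and the TAF3 peak of 48 touched an H3K4me3 peak below the cut. Their median length was 1318 bp (1294 to 1338), with 67.4-fold H3K4me3 (62.9 to 72.9), 24.96-fold TAF3 (23.9 to 26.1) and 80.2-fold RNAPII enrichment (76.9 to 83.4). Members with a shared TAF3 peak were shorter, at 1076 bp (1012 to 1135), with a like H3K4me3 value of 68.1-fold (59.5 to 75.4) and higher TAF3 and RNAPII values of 35.9-fold (31.1 to 39.0) and 115-fold (109 to 124). The RNAPII summit lay outside the member in 153 of these 263 (58.2%), and in 197 of all 943 members (20.9%). For these the RNAPII value, like that of TAF3, was read at a place the member does not cover. The TAF3 summit lay inside the member in 667 of the 680 (98.1%, 96.8 to 98.9%) and the RNAPII summit in 636 (93.5%, 91.4 to 95.1%). The nearest other filtered TAF3 peak was a median of 31792 bp away (28075 to 35571, n = 679 with another on the chromosome), compared with 41028 bp (39710 to 42396) for longer H3K4me3 peaks.

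The 3 unshared members with the highest TAF3 fold enrichment had peaks under 1500 bp in all 3 libraries. At chr12:120754487-120755561 the H3K4me3 peak was 1075 bp, the TAF3 peak 1137 bp and the RNAPII peak 1252 bp, with 146-, 132- and 189-fold enrichment, and the TAF3 summit was 78 bp from that of H3K4me3 and 58 bp from that of RNAPII. At chr3:194406088-194407473 the lengths were 1386, 1184 and 1201 bp and the enrichments 133-, 124- and 235-fold, and TAF3 and RNAPII summits were 2 bp apart. At chr19:48758247-48759585, singled out after its values were seen, the TAF3 peak was only 801 bp with 105-fold enrichment, next to 135-fold H3K4me3 and 103-fold RNAPII. Not every unshared member with strong TAF3 was like this. At chr8:82597729-82599121, with 99.9-fold TAF3, the RNAPII peak was 1650 bp.

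The 5 members with the strongest H3K4me3 were all unshared, and TAF3 varied widely among them. The top member, chr1:28995536-28996981, had 279-fold H3K4me3, 36.2-fold TAF3 and 122-fold RNAPII. Another member, chr1:28994372-28995352 (99.5-fold H3K4me3, 16.8-fold TAF3 in a peak of its own), lay beside it under the same RNAPII peak. A 1393 bp peak on chromosome 8 followed with 278-, 99.9- and 229-fold. At chr12:110561862-110563187 H3K4me3 reached 260-fold with TAF3 at 23.01-fold and RNAPII at 92.6-fold. The other two were chr12:51984915-51986070 (254-, 56.1- and 111-fold) and chr6:71276360-71277806 (238-, 63.3- and 236-fold). Across these 5 the TAF3 value lay between 23.01- and 99.9-fold.

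The lowest TAF3 for a given amount of mark was also found at unshared members. At chr3:72495052-72496339 H3K4me3 was 171-fold with 496 tags and TAF3 14.9-fold with 84 tags, a quotient of 0.0873, while RNAPII was 107-fold. The chromosome 12 peak of 260-fold H3K4me3 followed with 0.0885. After it came chr9:124461453-124462825 (121-fold H3K4me3, 11.2-fold TAF3, 52.3-fold RNAPII), chr11:4413955-4415424 (139-, 14.5- and 66.5-fold) and chr16:50775883-50777138 (179-, 19.1- and 34.8-fold). All 5 had TAF3 values below the median of members, and their RNAPII values spread from below the lower quartile of members to above the median.

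**Figure D3:**
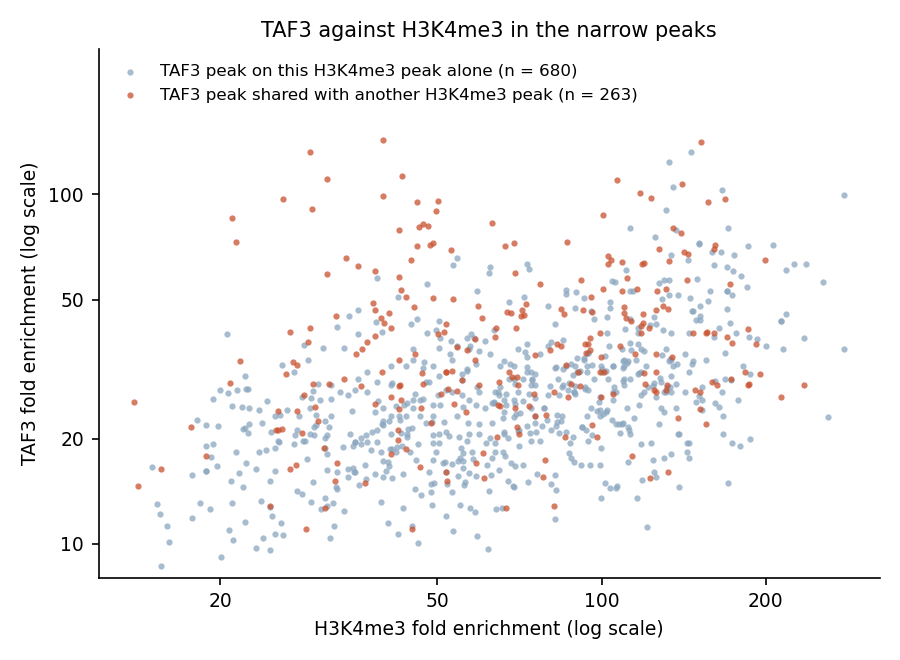
TAF3 fold enrichment against H3K4me3 fold enrichment for the 943 members, both on log scales, with a point per member, blue where the TAF3 peak lies on the member alone (n = 680) and red where it is shared with another H3K4me3 peak (n = 263). Among the 94 members with the highest quotient of TAF3 to H3K4me3 fold enrichment 57 are shared (60.6%), the highest TAF3 point being the site of 143-fold TAF3 and 39.8-fold H3K4me3.

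At a matched H3K4me3 fold enrichment, member medians were above those of longer peaks up to 100-fold for TAF3 and up to 150-fold for RNAPII. Above 150-fold both were below, and this order depended on the measure and on the shared sites. Under 25-fold TAF3 was 17.8 (15.9 to 21.3, n = 68) in members and 15.1 (13.1 to 18.4, n = 58) in longer peaks. RNAPII there was 61.4 (52.2 to 71.2) and 54.6 (45.2 to 62.0), so both pairs of intervals overlapped. Between 25 and 50-fold H3K4me3 the median TAF3 enrichment was 23.3 in members (21.5 to 24.6, n = 258) and 18.2 in longer peaks (17.1 to 20.02, n = 231), and between 50 and 75-fold it was 25.9 (24.7 to 27.8, n = 202) and 21.8 (20.7 to 22.96, n = 487). Between 75 and 100-fold the medians were 28.1 and 26.3, and between 100 and 150-fold 33.4 and 34.3, with overlapping intervals. Above 150-fold members had 40.1 (36.0 to 44.7, n = 89) and longer peaks 48.7 (47.9 to 49.5, n = 4820). RNAPII showed 72.2 (66.8 to 80.2) against 58.7 (56.4 to 65.7) between 25 and 50-fold, 83.7 (78.6 to 91.1) against 70.3 (68.0 to 72.8) between 50 and 75-fold, 113 (104 to 120) against 102 (100.4 to 103) between 100 and 150-fold, and 119 (109.2 to 133.6) against 136 (133.9 to 137) above 150-fold, where the intervals were barely apart. With the 680 unshared members alone, TAF3 stood at 20.7 (19.7 to 22.1) between 25 and 50-fold and RNAPII at 63.3 (58.4 to 69.5), and both intervals then overlapped those of the longer peaks. Between 50 and 75-fold they overlapped as well, at 24.6 (21.7 to 25.9) for TAF3 and 77.8 (70.0 to 82.9) for RNAPII, and between 100 and 150-fold the TAF3 value of unshared members, 31.0 (28.7 to 33.0), was below that of longer peaks (33.6 to 34.9). RNAPII between 100 and 150-fold then overlapped, at 104 (96.2 to 113), as did TAF3 above 150-fold, at 42.9 (36.2 to 49.6), while RNAPII above 150-fold stayed lower, at 111 (98.5 to 133.6). Members were picked by having TAF3, and weak H3K4me3 peaks are more often left without it, so the lower ranges hold the TAF3-positive part of each class only.

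**Figure D4:**
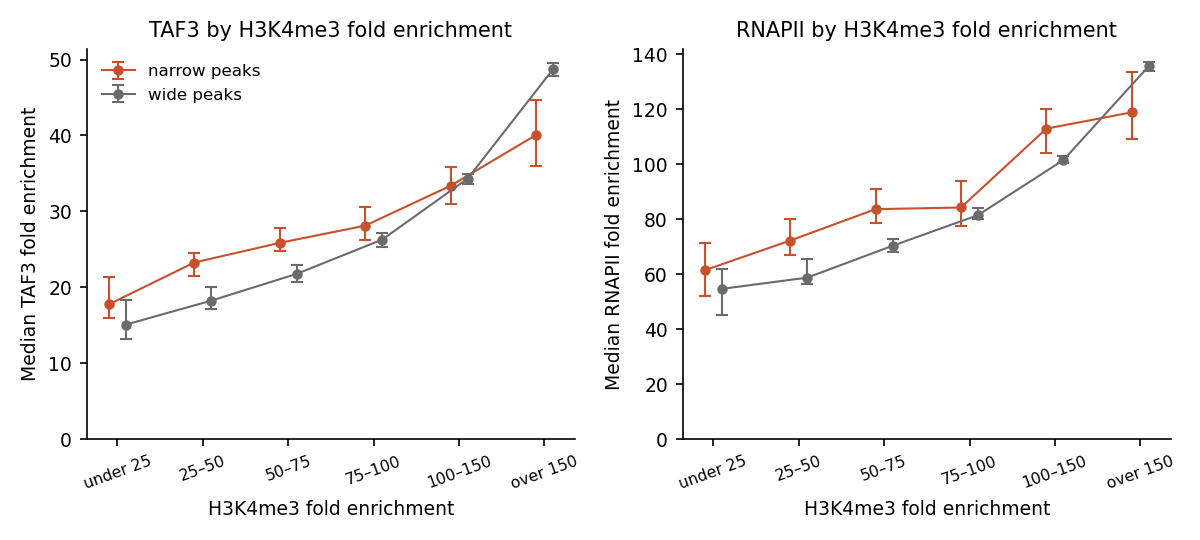
Median fold enrichment of TAF3 (left) and RNAPII (right) in 6 ranges of H3K4me3 fold enrichment, for members (red) and for peaks of 1500 bp or more under the same overlap rule (grey), with 95% order-statistic intervals over peaks and axes from 0. Member medians lie above the longer peaks up to 100-fold for TAF3 and up to 150-fold for RNAPII, and below them above 150-fold in both panels. The intervals overlap under 25-fold and between 75 and 100-fold. In tags per kb the order was the opposite up to 100-fold for TAF3 and between 25 and 150-fold for RNAPII.

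In tags per kb the medians of members were below those of longer peaks in every range from 25-fold up, for both TAF3 and RNAPII. Under 25-fold RNAPII had 194 (172 to 206) in members and 168 (160 to 194) in longer peaks, and TAF3 79.2 (74.5 to 88.7) and 79.5 (75.3 to 84.9), with overlapping intervals. Between 25 and 50-fold TAF3 had 82.7 (80.7 to 85.3) in members and 85.4 (82.5 to 88.6) in longer peaks, and RNAPII 183 (173 to 190) and 192 (178 to 203), with overlapping intervals. Between 50 and 75-fold TAF3 had 82.8 (80.8 to 88.5) and 93.4 (89.3 to 97.7), which did not overlap, and RNAPII 185 (176 to 201) and 204 (195 to 212), which did. Between 75 and 100-fold H3K4me3 the median TAF3 density was 90.2 tags per kb of TAF3 peak in members (84.5 to 97.6) and 106 in longer peaks (103 to 109), and above 150-fold it was 103 (90.3 to 116) and 133 (132 to 135). RNAPII density between 75 and 100-fold was 190 (173 to 205) in members and 217 (212 to 223) tags per kb in longer peaks. Between 100 and 150-fold it was 197 (181 to 219) and 232 (229 to 235). There the order was the opposite of that in RNAPII fold enrichment, and the intervals did not overlap in either measure. Above 150-fold RNAPII density was 195 (176 to 215) and 242 (240 to 244) tags per kb. Fold enrichment reads the height at the summit and tags per kb the mean over the peak, and between 75 and 100-fold the medians of the first had overlapping intervals while those of the second did not.

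TAF3 and RNAPII summits were as close in members as elsewhere. The median distance was 40 bp in members (34 to 47, quartiles 15 and 146) and 42 bp in longer peaks (41 to 44, quartiles 15 and 170). The RNAPII summit lay within 50 bp of the TAF3 summit in 520 of 943 members (55.1%, 52.0 to 58.3%), in 54.8% of longer peaks and in 54.8% of peaks of any length. The difference between members and longer peaks was 0.381 percentage points (95% interval -2.95 to 3.67). The distance exceeded 1000 bp in 26 members (2.76%) and in 2.42% of longer peaks. Summit positions did not enter the choice of members, although the RNAPII peak had to touch the same H3K4me3 peak.

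The H3K4me3 summit was nearer to TAF3 in unshared members than in longer peaks, in bp though not relative to length. The median distance was 130 bp in the 680 unshared members (121 to 138), 499 bp in the 263 with a shared TAF3 peak (469 to 533), 151 bp in all members (140 to 163) and 237 bp in longer peaks (231 to 242). A short peak bounds how far away its summit can lie. As a share of the H3K4me3 peak's length, the median was 10.4% in unshared members (9.61 to 11.2%), 51.6% in those with a shared TAF3 peak (44.7 to 59.1%) and 9.55% in longer peaks (9.35 to 9.75%).

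TAF3 and RNAPII peaks often outran the short H3K4me3 peak. The TAF3 peak was longer than the H3K4me3 peak in 350 members (37.1%, 34.1 to 40.2%), against 3.30% of longer peaks and 6.12% of peaks of any length. The RNAPII peak was longer in 520 members (55.1%, 52.0 to 58.3%), against 21.4% and 24.3%. The limit of 1500 bp bears directly on both. In unshared members the shares were 16.0% for TAF3 and 41.3% for RNAPII, and with a shared TAF3 peak they were 91.6% and 90.9%. The TAF3 peak lay wholly inside 316 members, all of them unshared (46.5% of the 680), and inside 86.1% of longer peaks. Across members the TAF3 and RNAPII peak lengths had a rank correlation of 0.67, and TAF3 length followed H3K4me3 length with 0.30 in the 680 unshared members (all members -0.04) and 0.70 in the 10343 longer peaks. These correlations are across peaks that share an input library and are descriptions only. H3K4me3 length ran from 513 to 1499 bp in unshared members and from 1500 to 8501 bp in longer peaks. A narrower range can by itself lower a rank correlation, so the values of 0.30 and 0.70 cannot be compared.

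RNAPII reached farther on one side of the TAF3 summit than on the other, and that side is used below as a direction, since strand is not known. The H3K4me3 summit lay on this side in 557 of 941 members with a defined direction (59.2%, 56.0 to 62.3%) and in 58.0% of longer peaks (57.0 to 58.9%), a difference of 1.19 percentage points (-2.12 to 4.43). In unshared members it was 61.7% (57.9 to 65.2%) and in those with a shared TAF3 peak 52.9% (46.8 to 58.8%). At 500 bp from the TAF3 summit the H3K4me3 peak covered 75.3% of unshared members on the side of the longer RNAPII arm and 53.2% on the other side. At 1000 bp it covered 17.5% and 6.77%, and in longer peaks 80.7% and 59.5%. The width limit bounds how far a member can reach, and the side was set by RNAPII, so neither the narrowness of H3K4me3 nor the longer RNAPII arm in this view is a result.

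In the shared pairs the gap between the called H3K4me3 peaks lay to one side of the TAF3 summit. The gap's centre was a median of 266.5 bp from the TAF3 summit (234.5 to 296, quartiles 193 and 390), on the side of the longer RNAPII arm in 141 of 211 pairs (66.8%, 60.2 to 72.8%). Over the 263 members, which count some of the 213 TAF3 peaks more than once, coverage by called, filtered H3K4me3 peaks was 96.6% at the TAF3 summit. It was 78.7% at 200 bp on that side and back at 93.2% at 500 bp. On the other side there was a shallower dip, to 89.0% at 150 bp, with 95.1% at 500 bp. The H3K4me3 peak with more tags lay on the side of the longer arm in 97 of 211 pairs (46.0%, 39.4 to 52.7%), an interval that includes 50%. The rule required RNAPII to touch the short member. In 104 of the 162 pairs of a member and a long peak the TAF3 summit lay in the long peak, across the gap from the member. Selection alone can thus lengthen the RNAPII arm toward the gap, so the side of the gap and of the deeper dip is not a result.

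**Figure D5:**
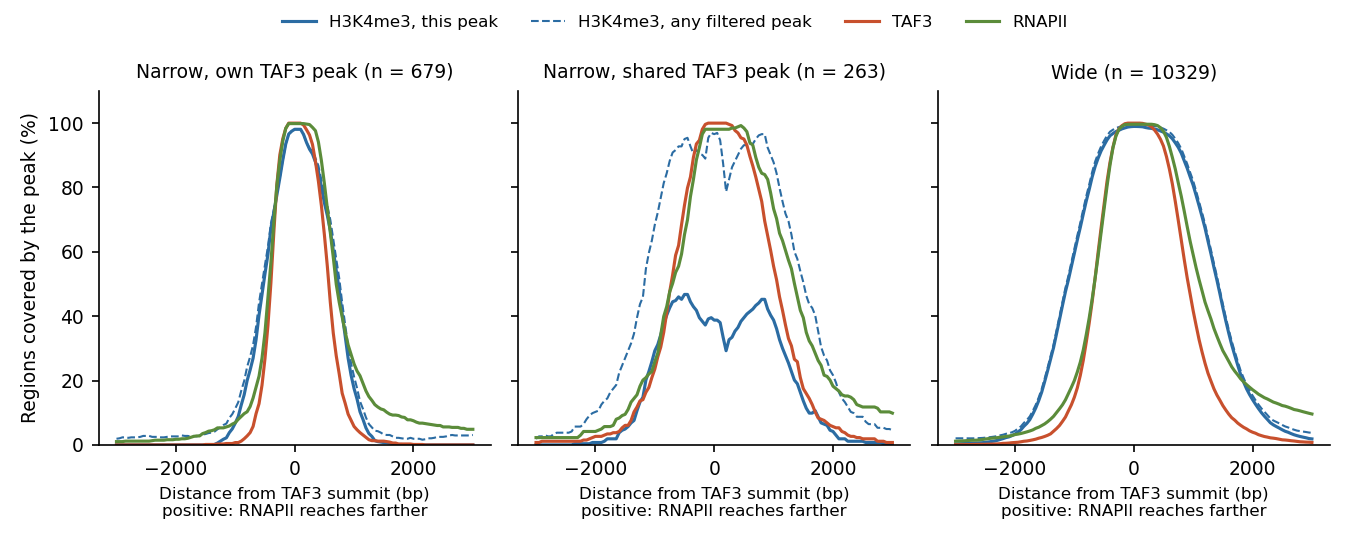
Share of regions, in percent, whose called peak covers each distance in bp from the TAF3 summit, turned so that RNAPII reaches farther to the right, for unshared members (n = 679), members with a shared TAF3 peak (n = 263) and longer peaks (n = 10329), in which a direction was defined. Solid blue is the H3K4me3 peak itself, dashed blue any filtered H3K4me3 peak, red TAF3 and green RNAPII. In the middle panel the dashed line dips to 89.0% at 150 bp on the left and to 78.7% at 200 bp on the right. The side of the deeper dip is not independent of the choice of members.

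TAF3 and RNAPII tracked each other among members more closely than either tracked the mark. The rank correlation of fold enrichment across the 943 members was 0.67 between TAF3 and RNAPII, 0.41 between TAF3 and H3K4me3 and 0.36 between H3K4me3 and RNAPII. In longer peaks the values were 0.75, 0.55 and 0.55. In unshared members they were 0.58, 0.50 and 0.41, and in those with a shared TAF3 peak 0.79, 0.19 and 0.22. The input library enters all 3 fold enrichments, and for shared sites the TAF3 summit is mostly in the neighbouring H3K4me3 peak. With tags per kb the values across members were 0.53, 0.27 and 0.14.

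A small set of members overlapped long RNAPII peaks. The RNAPII peak was 5000 bp or longer at 45 members (4.77%, 3.59 to 6.33%), compared with 7.90% of longer H3K4me3 peaks. The longest, 19710 bp with 4601 tags and 126-fold enrichment, ran over chr16:739406-740859, where H3K4me3 was 130-fold and TAF3 23.9-fold in a peak of 1023 bp, and its RNAPII summit was 6143 bp from the TAF3 summit. An 18733 bp RNAPII peak with 3316 tags covered a pair of members, chr12:53439661-53441062 (71.1-fold H3K4me3) and chr12:53441183-53442417 (32.6-fold), under a single TAF3 peak of 4452 bp and 44.9-fold. A longer H3K4me3 peak of 2679 bp lay under the same TAF3 peak. These sites were singled out after their values were seen.

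Members were spread over all chromosomes at unequal rates. Of the 11286 H3K4me3 peaks of any length under the overlap rule, 8.36% were members (7.86 to 8.88%). Over 23 chromosomes (Y, with 1 member, left out) the share ran from 5.30% of 1133 on chromosome 1 (4.14 to 6.76%) to 15.2% of 330 on the X chromosome (11.7 to 19.4%), with 12.7% of 793 on chromosome 19 (10.6 to 15.2%) and 13.9% of 101 on chromosome 21 (8.44 to 21.9%). The 50 members on the X chromosome had a median of 105-fold H3K4me3 enrichment, above the 67.7 of all members, with 31.0-fold TAF3 and 89.3-fold RNAPII. Over peaks of any length under the rule the order was the opposite, with 131 on X (127 to 136, n = 330) and 141 elsewhere (140 to 143, n = 10956), and those on X were shorter, at a median of 2216.5 bp (2152 to 2304) against 2415 bp (2399 to 2434). The member of highest RNAPII enrichment among those unshared was also there, at chrX:53111429-53112864 (244-fold RNAPII, 75.7-fold TAF3, 125-fold H3K4me3). The 101 on chromosome 19 had 62.6-, 26.0- and 83.6-fold, and 37 of them had a shared TAF3 peak. The part of copy number, read mappability or gene density in these shares was not tested.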

How the data were processed

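ChIP-seq libraries for TAF3, H3K4me3 and RNAPII and an input library were compared, 1 library each. Per the submitters' processing notes, CASAVA 1.8.2 and MACS 1.4.2 were used on build hg19. How the aligner was set is not given in the sources used here. The authors, per the file headers, called peaks per antibody against the input at a p cutoff of 1e-05 with 1 tag kept per position. Tag counts per peak were deposited unscaled. Fold enrichment was deposited as a ratio to local input background, the deposited false discovery rate is in percent, and the deposited score, a rescaled log10 of p, was not used here. The authors' filtered lists hold, when checked, exactly the peaks with fold enrichment above 5 and a rate below 5% (0 mismatches in each list).

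Overlap meant at least 1 bp. Where several RNAPII peaks overlapped, that of highest fold enrichment was taken. Shares carry Wilson 95% intervals, differences of shares Newcombe intervals and medians order-statistic intervals; no test was made, because there are no replicates and peaks are not replicates. Regions were named by rank (5 each by TAF3, H3K4me3 and RNAPII fold enrichment, shortness, and highest and lowest quotient of TAF3 to H3K4me3, and 3 on each side of 1500 bp), and some are not printed. Members and lists were chosen with earlier results of these data known. Alternatives changed the width limit, overlap, lists, TAF3 number, chromosomes and neighbour distance. Gene starts, gene lists and sequence were planned but are not analysed, since the reference at hand is on GRCh38.p14. Members were split by whether their TAF3 peak touched another filtered H3K4me3 peak after the data were seen. Scripts ran under Python 3.11.15 (pandas 2.3.3, scipy 1.17.1, numpy 2.4.6), with plots by matplotlib 3.10.9; 9 of 9 checks on simulated data and against bedtools 2.31.1 passed.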

Additional observations from a re-analysis of the deposited data

Results flagged for a closer look

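Called TAF3 peaks below the authors' cut, which most comparisons above leave out, overlapped short H3K4me3 peaks without a filtered TAF3 peak. Of the 1127 with RNAPII, 893 had such a weaker TAF3 peak on them (79.2%), with a median of 11.2-fold TAF3 enrichment and 35 tags, where a count of 0 would allow up to 0.266%. Any overlap would pass that limit. Among H3K4me3 peaks of 1500 bp or more with RNAPII and no filtered TAF3 peak the overlap was 837 of 930 (90.0%, 95% interval 87.9 to 91.8%), and among all 2737 H3K4me3 peaks without filtered TAF3 70.2%. The 893 short peaks had a median H3K4me3 fold enrichment of 43.2, and the 234 without any TAF3 peak had 33.7. Of the 533 short peaks with neither partner, 137 overlapped such a TAF3 peak (25.7%, limit for a count of 0 of 0.563%), with a median of 10.8-fold, against 54 of 147 longer ones (36.7%, 29.4 to 44.8%). Among the members themselves, 20 of 943 overlapped a second TAF3 peak that was below the cut (2.12%, limit 0.318%).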

How the results depend on the processing

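Of 94 recomputed values 41 were counted as stable and 53 as moved. Medians and shares were set against the 95% interval reported, and the number of members against a change of 1.5 times, so 801 (50% cover), 680 (unshared) and 679 members (joined at 200 bp) count as stable. Tags per kb, another unit, were counted as moved throughout. With H3K4me3 peaks under 1000 bp there were 186 members, with medians of 29.7-fold TAF3, 46.2-fold H3K4me3 and 93.7-fold RNAPII, summit distances of 49 bp (TAF3 to RNAPII) and 280.5 bp (TAF3 to H3K4me3), a TAF3 peak longer in 74.2%, an RNAPII peak longer in 81.7%, TAF3 at 26.9% of narrow peaks, a neighbour in 69.4% and a shared TAF3 peak in 59.1%. Under 2000 bp the same values were 3002 members, 28.9-, 105- and 94.1-fold, 17.5%, 35.4%, 55.8%, 20.8% and 13.9%, without the distances, which stayed inside. With the full TAF3 and RNAPII lists they were 1914 members, 16.7-, 50.4- and 59.0-fold, 51.5 and 135 bp, 20.6%, 41.6%, 75.9%, 25.2% and 14.5%. Requiring 50% of the H3K4me3 peak to be covered gave TAF3 at 33.3% of narrow peaks and sharing in 24.97%, and a neighbour limit of 5000 bp gave 42.8%. In place of fold enrichment, tags per kb were 86.4 for TAF3, 148.5 for H3K4me3 and 187.6 for RNAPII.

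Chosen after seeing the data, the 680 unshared members gave 24.96-fold TAF3, 80.2-fold RNAPII, 130 bp from TAF3 to H3K4me3 summit, a TAF3 peak longer in 16.0%, RNAPII longer in 41.3% and a neighbour in 12.6%. Joining H3K4me3 peaks up to 200 bp apart gave sharing in 4.86%. Joining up to 500 bp gave 620 members, 24.55-fold TAF3, 78.8-fold RNAPII, 132.5 bp, 16.6%, 39.8%, TAF3 at 29.5% of narrow peaks, a neighbour in 4.03% and sharing in 0.161%. By construction these settings remove the shared sites. Allowing more than 1 TAF3 peak, or leaving out X and Y, moved none of these values. No paired analysis was possible because each antibody has 1 library, and no replicate could be left out. Alternatives on gene starts and sequence were not run. The effect of depth on the TAF3 list was not tested. With the full TAF3 list, added after seeing the data, TAF3 lay on 98.4% of long peaks.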
